A study of Homo sapiens with 12 samples.

Results

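The genes described here belong to 3 small families of immediate early genes: the zinc-finger transcription factors EGR1, EGR2 and EGR3, the orphan nuclear receptors NR4A1, NR4A2 and NR4A3, and the immediate early response genes IER2, IER3 and IER5. They were chosen by name, and they and the lists used below were chosen with earlier results of these data known. Counts set beside shares of all genes are therefore descriptions, not tests. Each gene was read from the probe set that carries its symbol in the array's annotation, with the highest mean over the 12 arrays where there were several. Of the 9 genes, 8 were measured, out of 18417 genes on the array. No probe set in the annotation used carries the symbol EGR2, which was not analysed here.

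All arrays came from MCF10A, a non-tumorigenic human breast epithelial line, stably transfected with a full-length HER2 chimera that carries tags of FKBP and HA. Whether the line is 1 clone is not stated. The 4 groups of 3 arrays were cells given AP1510, TGF-alpha or heregulin, each harvested 48 hours after ligand, and untreated cells, whose harvest time is not stated. AP1510 joins FKBP-tagged receptors into homodimers, TGF-alpha binds EGFR, and heregulin binds HER3 and HER4. In all groups, the medium lost its serum and EGF 24 hours before ligand but kept insulin (10 microgram/ml), hydrocortisone (500 ng/ml) and cholera toxin (100 ng/ml), an agent that raises cAMP. Ligand doses are not stated. The protocol has dishes seeded in triplicate and names no separate experiments, so p-values cover only the spread between arrays within groups, which may be technical. The fit pooled that spread over the 4 groups for each gene and moderated it with all genes, so it is not the spread of 1 group.

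Immediate early genes are transcribed without new protein synthesis when a cell receives a stimulus. Growth factors reach them through ERK, which phosphorylates the ELK partners of the serum response factor SRF on promoter elements called CArG boxes, and agents that raise cAMP reach them through CREB on cAMP response elements. Their RNA is short-lived, so after a single stimulus they usually peak within the first hours and fall back. Samples at 48 hours therefore read the level long after addition of ligand, not the first response.

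The sequences just before the start sites of EGR1, NR4A3 and IER2 are shown because they hold elements of the kinds named above. The fall with TGF-alpha does not set them apart, since all 8 measured genes fell. RefSeq promoter entries on GRCh38.p14 were used for 5 of the 8 measured genes, these 3 and NR4A1 and IER5. No entry was matched for NR4A2 or IER3, and EGR3 was left out of the search. Each line gives the 200 bases before the start on the plus strand, 5′ to 3′. Capitals mark CArG boxes, the cAMP response element half-site TGACG (read as CGTCA on the other strand) and the EGR site GCGNGGGCG, each searched on both strands.
EGR1, chr5:138465279-138465478: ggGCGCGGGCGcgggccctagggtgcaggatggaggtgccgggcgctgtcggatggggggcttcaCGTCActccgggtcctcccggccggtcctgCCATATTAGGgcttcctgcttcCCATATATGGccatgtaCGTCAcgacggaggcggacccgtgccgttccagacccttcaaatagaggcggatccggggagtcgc
NR4A3, chr9:99821685-99821884: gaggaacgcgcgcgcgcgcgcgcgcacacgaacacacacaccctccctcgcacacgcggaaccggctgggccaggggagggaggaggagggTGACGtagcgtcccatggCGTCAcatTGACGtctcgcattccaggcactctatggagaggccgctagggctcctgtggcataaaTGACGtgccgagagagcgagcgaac
IER2, chr19:13150211-13150410: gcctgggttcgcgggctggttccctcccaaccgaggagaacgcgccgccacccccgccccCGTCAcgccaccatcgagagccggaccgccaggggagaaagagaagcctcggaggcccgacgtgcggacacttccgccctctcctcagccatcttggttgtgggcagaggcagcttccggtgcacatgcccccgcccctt

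In the 250 bases before the start, EGR1 held 2 CArG boxes, at 105 to 96 and at 83 to 74 bases before it, along with 2 half-sites and 1 EGR site. NR4A3 held 4 half-sites and IER2 held 1. The 2 entries of NR4A1 and the entry of IER5 held none of the 3 elements. No entry of the 5 genes held the full cAMP response element TGACGTCA. The ETS factor site CCGGAA had 1 match each in IER2, IER5 and 1 entry of NR4A1, and none in EGR1 or NR4A3. Among all 35116 promoter entries, 1.16% held a CArG box, 21.2% a half-site and 8.41% an EGR site in the same window. The full cAMP response element was in 1.65% and the ETS factor site in 14.5%. These matches are letters in a window, and binding of a factor was not measured.

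Values are log2 intensities made by the authors with RMA, and a difference of 1 is a 2-fold change. Arrays had medians of 5.33 to 5.44 over all probe sets. Epithelial identity was checked first. KRT5, a basal keratin, had group means of 11.5 to 12.6 and CDH1, E-cadherin, of 10.7 to 11.1, while the leukocyte marker PTPRC had 2.92 to 3.01 and the fibroblast marker LUM 2.74 to 2.78. All 9 measured basal and epithelial markers had a mean above that of the median gene, against 1 of 6 leukocyte markers (CD14), 1 of 5 endothelial markers (PECAM1) and 2 of 7 fibroblast markers (COL1A1 and DCN). Some markers changed with the groups. CD14 fell with all 3 ligands, with means of 8.36 with AP1510, 7.23 with TGF-alpha, 8.92 with heregulin and 9.61 in untreated cells (adjusted p = 0.00017, 2.5e-09 and 0.0025). DCN averaged 7.19 with AP1510, 6.34 with TGF-alpha, 8.74 with heregulin and 7.15 in untreated cells, a fall with TGF-alpha (adjusted p = 0.00018) and a rise with heregulin (adjusted p = 9.1e-07). With TGF-alpha 4 of 5 basal and 3 of 4 epithelial markers rose, where 12.5% of all genes were called higher and 13.4% lower. The other basal marker, CDH3, fell 1.36-fold with TGF-alpha (limma adjusted p = 0.0011). CDH1 did not pass (log2 change -0.21, adjusted p = 0.082). EPCAM, an epithelial adhesion gene, fell 2.13-fold with heregulin (adjusted p = 0.0025). The part of these markers in the results below was not tested. In such bulk RNA, fewer cells that express a gene and less of its RNA per cell cannot be told apart.

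**Figure D1:**
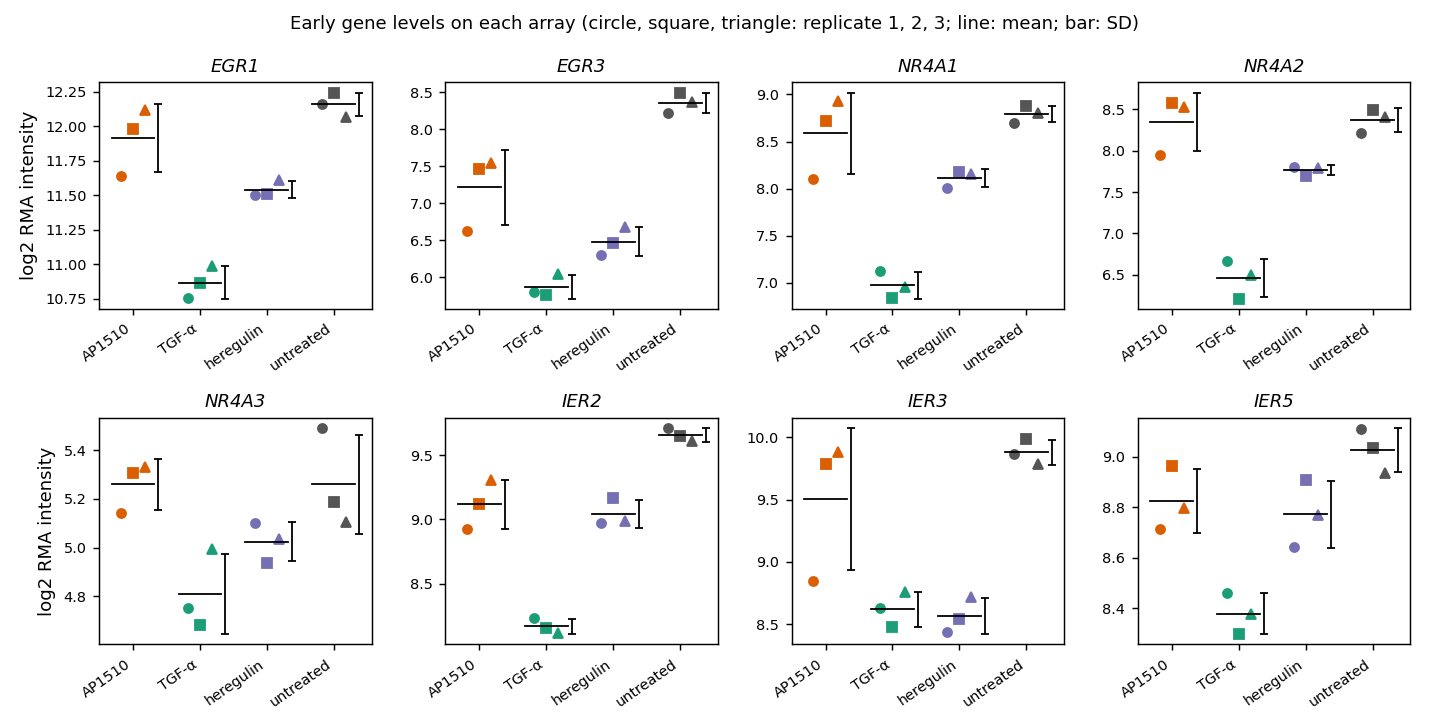
Log2 RMA intensity (vertical axis, its own range for each gene) of the 8 measured genes on every array, by group. Circles, squares and triangles are replicates 1, 2 and 3, lines are means and bars SD (n = 3); the lowest mean is that of TGF-alpha for 7 of 8 genes, and the AP1510 circle lies below the other AP1510 arrays for all 8.

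All 8 genes differed among the 4 groups by limma's moderated F test, with adjusted p of 1.2e-07 for IER2 to 0.012 for NR4A3, where 28.5% of all genes passed. For all 8 the untreated mean was the highest, and for 7 the means stood in the order TGF-alpha, heregulin, AP1510, untreated from low to high. IER3 was the exception, with heregulin lowest. The place of untreated above AP1510 rested for 3 genes on AP1510 replicate 1, without which the change with AP1510 was 0.04 for NR4A1, 0.18 for NR4A2 and 0.06 for NR4A3, while it stayed negative for the other 5. For NR4A2 the change with AP1510 was also above 0 without untreated replicate 2. For NR4A3 it was also above 0 with renewed quantile normalization (0.011), with array medians subtracted (0.0055) and without untreated replicate 1 (0.11). Against untreated cells, all 8 genes fell with TGF-alpha, 6 fell with heregulin and 2 fell with AP1510. By limma 0 rose with any ligand, also at an unadjusted p under 0.05, where 8 were lower with TGF-alpha, 7 with heregulin and 3 with AP1510. Over all genes tested, the share called lower at an adjusted p under 0.05 was 13.4% with TGF-alpha, 5.06% with heregulin and 0.7% with AP1510. The share called higher was 12.5%, 3.45% and 0.771%. At an unadjusted p under 0.05 the share of all genes was not counted, so counts at that cut-off, here and below, cannot be set against these shares. The 3 comparisons share the untreated arrays.

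EGR1 binds GC-rich sites through 3 zinc fingers and is a standard readout of ERK signalling to SRF. Its level was 11.64, 11.98 and 12.12 on the AP1510 arrays, 10.75, 10.86 and 10.99 with TGF-alpha, 11.50, 11.51 and 11.61 with heregulin and 12.16, 12.24 and 12.07 in untreated cells. The TGF-alpha and the heregulin arrays each lay below every untreated array, while the AP1510 arrays overlapped with them. EGR1 fell 2.44-fold with TGF-alpha (log2 change -1.29 ± 0.11 SE, limma adjusted p = 2.6e-07). The fall with heregulin was 1.53-fold (-0.62 ± 0.11, adjusted p = 0.002). With AP1510 the change was -0.24 ± 0.11 (95% interval -0.48 to -0.01, adjusted p = 0.43), and without AP1510 replicate 1 it was -0.11 (adjusted p = 0.86).

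EGR3, which shares the zinc-finger domain of EGR1 and acts in muscle spindle and lymphocyte development, had the largest changes of the 8 in each comparison with untreated cells. Its level was 6.63, 7.47 and 7.54 with AP1510, 5.79, 5.75 and 6.04 with TGF-alpha, 6.30, 6.46 and 6.68 with heregulin and 8.22, 8.49 and 8.37 in untreated cells. No treated array reached the untreated range. EGR3 fell 5.64-fold with TGF-alpha (log2 change -2.50 ± 0.19, adjusted p = 5e-08), 3.68-fold with heregulin (-1.88 ± 0.19, adjusted p = 5.9e-06) and 2.22-fold with AP1510 (-1.15 ± 0.19, adjusted p = 0.0051). Without AP1510 replicate 1, the change with AP1510 was -0.86 (adjusted p = 0.0049).

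The NR4A genes encode nuclear receptors that act without a known physiological hormone and are induced by cAMP as well as by growth factors. NR4A1, or Nur77, read 8.10, 8.72 and 8.93 with AP1510, 7.13, 6.84 and 6.96 with TGF-alpha, 8.01, 8.18 and 8.16 with heregulin and 8.70, 8.88 and 8.80 in untreated cells. NR4A2, or Nurr1, read 7.95, 8.58 and 8.53 with AP1510, 6.67, 6.21 and 6.49 with TGF-alpha, 7.81, 7.69 and 7.79 with heregulin and 8.22, 8.49 and 8.40 in untreated cells. For both genes the TGF-alpha arrays lay below all others, the heregulin arrays lay below the untreated ones, and AP1510 replicates 2 and 3 lay within or above the untreated range.

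NR4A1 fell 3.52-fold with TGF-alpha (log2 change -1.82 ± 0.16, adjusted p = 2.4e-07). Its fall with heregulin was 1.60-fold (-0.68 ± 0.16, adjusted p = 0.011). NR4A2 fell 3.77-fold with TGF-alpha (-1.92 ± 0.15, adjusted p = 9e-08). With heregulin it was 1.52-fold lower (-0.61 ± 0.15, adjusted p = 0.018). That last call was lost without untreated replicate 2 (adjusted p = 0.073), untreated replicate 3 (adjusted p = 0.065) or heregulin replicate 2 (adjusted p = 0.058). With AP1510 the change was -0.21 for NR4A1 (95% interval -0.54 to 0.13, adjusted p = 0.72) and -0.02 for NR4A2 (95% interval -0.34 to 0.30, adjusted p = 0.98). Both turned positive without AP1510 replicate 1, at 0.04 (adjusted p = 0.97) and 0.18 (adjusted p = 0.76).

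NR4A3, or NOR1, was read near or below the array medians. Its level was 5.14, 5.31 and 5.33 with AP1510, 4.75, 4.68 and 4.99 with TGF-alpha, 5.10, 4.94 and 5.04 with heregulin and 5.49, 5.19 and 5.10 in untreated cells. The TGF-alpha arrays lay below the untreated ones by a small margin, and the fall was 1.37-fold (log2 change -0.45 ± 0.11, adjusted p = 0.006). The heregulin arrays also lay just below the untreated ones, but the change of -0.24 ± 0.11 did not pass (95% interval -0.47 to 0.00, adjusted p = 0.25). With AP1510 the mean was 5.26, as in untreated cells (95% interval of the change -0.24 to 0.24, adjusted p = 1).

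IER2 encodes a nuclear protein implicated in transcription. Its level was 8.92, 9.12 and 9.30 with AP1510, 8.23, 8.15 and 8.11 with TGF-alpha, 8.97, 9.17 and 8.99 with heregulin and 9.71, 9.65 and 9.61 in untreated cells. Every treated array lay below every untreated one, and the TGF-alpha arrays lay below those of the other ligands. IER2 fell 2.81-fold with TGF-alpha (log2 change -1.49 ± 0.10, adjusted p = 1.9e-08), 1.53-fold with heregulin (-0.61 ± 0.10, adjusted p = 0.00076) and 1.45-fold with AP1510 (-0.54 ± 0.10, adjusted p = 0.011). The AP1510 call was lost without AP1510 replicate 1 (-0.44, adjusted p = 0.071) or untreated replicate 1 (-0.51, adjusted p = 0.064).

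IER3, also called IEX-1, is a stress-inducible protein that bears on apoptosis and is a substrate of ERK. Its level was 8.85, 9.78 and 9.88 with AP1510, 8.63, 8.48 and 8.76 with TGF-alpha, 8.44, 8.54 and 8.72 with heregulin and 9.86, 9.99 and 9.79 in untreated cells. The TGF-alpha and heregulin arrays overlapped with each other and lay below all untreated arrays, and AP1510 replicate 1 lay about 1 log2 unit below the other AP1510 arrays. IER3 fell 2.39-fold with TGF-alpha (log2 change -1.26 ± 0.19, adjusted p = 0.00011). The fall with heregulin was 2.48-fold (-1.31 ± 0.19, adjusted p = 3e-04). With AP1510 the change was -0.37 ± 0.19 (adjusted p = 0.5), and without AP1510 replicate 1 it was -0.05 (adjusted p = 0.96). The annotation lists 3 probe sets for IER3, of which the other 2 held identical values. These had means of 9.14 with AP1510, 8.34 with TGF-alpha, 8.30 with heregulin and 9.53 in untreated cells, in the same order as the probe set used.

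IER5, a regulator of the heat shock factor HSF1, had the smallest change with TGF-alpha after NR4A3. Its level was 8.71, 8.96 and 8.80 with AP1510, 8.46, 8.30 and 8.37 with TGF-alpha, 8.64, 8.91 and 8.77 with heregulin and 9.11, 9.03 and 8.93 in untreated cells. The TGF-alpha arrays stood apart below all others, and the heregulin arrays lay just under the untreated range. IER5 fell 1.57-fold with TGF-alpha (log2 change -0.65 ± 0.10, adjusted p = 8e-05). The change with heregulin was -0.25 ± 0.10 (adjusted p = 0.14, and 0.024 with array weights), and with AP1510 it was -0.20 ± 0.10 (adjusted p = 0.46).

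**Figure D2:**
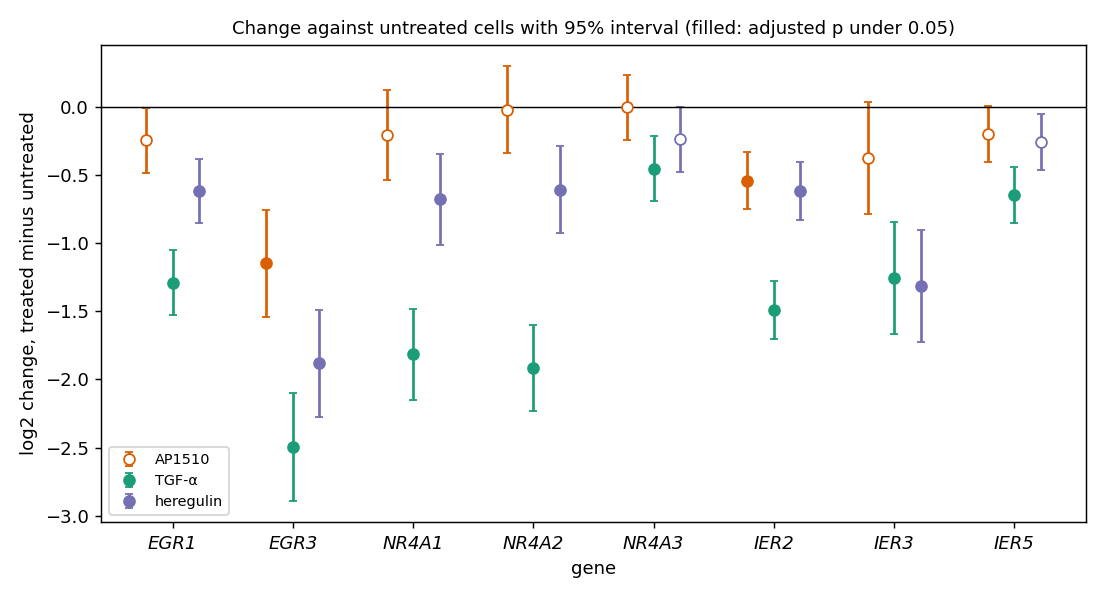
Log2 change of each gene (horizontal axis) in AP1510, TGF-alpha and heregulin cells against untreated cells, with the 95% interval from the fit (n = 3 arrays per group). Filled points passed an adjusted p of 0.05, as all 8 did with TGF-alpha, 6 with heregulin and 2 with AP1510.

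Contrasts between ligands set treated cells of the same 48 hours against each other. With TGF-alpha all 8 genes were called lower than with AP1510, while 10.4% of all genes were called lower. The TGF-alpha and AP1510 arrays did not overlap for any of the 8, but the share of all genes without overlap was not counted. The differences ran from 3.72-fold for NR4A2 (log2 difference -1.90 ± 0.15, adjusted p = 2.2e-07) and 3.05-fold for NR4A1 (-1.61 ± 0.16, adjusted p = 1.6e-06) down to 1.36-fold for IER5 (-0.45 ± 0.10, adjusted p = 0.0028). All 8 calls stood whichever single array was left out, with NR4A3 closest to the threshold (adjusted p = 0.044 without TGF-alpha replicate 2).

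With heregulin, 6 of the 8 genes were higher than with TGF-alpha, and 9.88% of all genes were called higher. NR4A2 was 2.48-fold higher (log2 difference 1.31 ± 0.15, adjusted p = 7e-06), NR4A1 2.20-fold, IER2 1.84-fold and EGR1 1.59-fold. EGR3 was 1.53-fold higher (adjusted p = 0.025), a call that was lost without TGF-alpha replicate 1 (adjusted p = 0.078), TGF-alpha replicate 2 (adjusted p = 0.093), heregulin replicate 2 (adjusted p = 0.053) or heregulin replicate 3 (adjusted p = 0.1). IER5 was 1.31-fold higher (adjusted p = 0.0069). IER3 differed by -0.05 ± 0.19 (95% interval -0.47 to 0.36, adjusted p = 0.89), and NR4A3 by 0.22 ± 0.11 (95% interval -0.02 to 0.45, adjusted p = 0.21).

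With heregulin, 3 genes were lower than with AP1510, where 3.95% of all genes were called lower. IER3 was 1.92-fold lower (log2 difference -0.94 ± 0.19, adjusted p = 0.0064), EGR3 1.66-fold lower (-0.73 ± 0.19, adjusted p = 0.023) and NR4A2 1.50-fold lower (-0.59 ± 0.15, adjusted p = 0.025). EGR1 (-0.37 ± 0.11, adjusted p = 0.057) and NR4A1 (-0.47 ± 0.16, adjusted p = 0.085) did not pass, and both did without AP1510 replicate 1 (-0.51, adjusted p = 0.0055, and -0.71, adjusted p = 0.00079), which gave 5 genes. The number was 1 without AP1510 replicate 2, AP1510 replicate 3 or heregulin replicate 2, and IER3 kept its call with each array left out (adjusted p up to 0.043). IER2 differed by -0.07 (95% interval -0.29 to 0.14, adjusted p = 0.75) and IER5 by -0.05 (95% interval -0.26 to 0.15, adjusted p = 0.82).

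**Figure D3:**
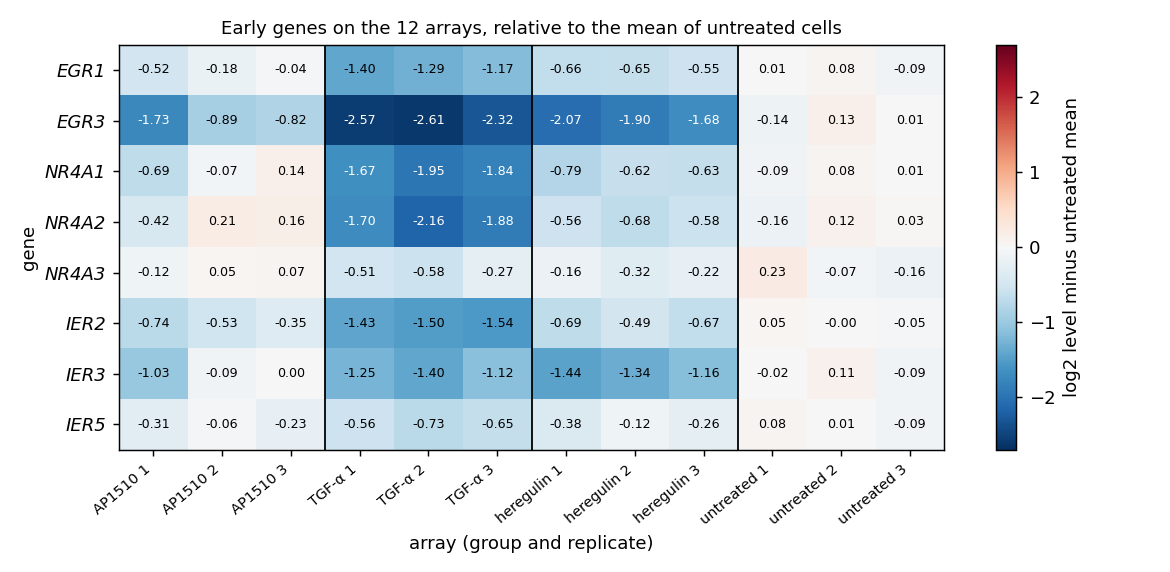
Log2 level of each gene (rows) on each array (columns) minus its mean over the 3 untreated arrays, printed in each cell and coloured from blue (lower) to red (higher). AP1510 replicate 1 is lower than AP1510 replicates 2 and 3 in every row.

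AP1510 replicate 1 had the lowest level of its group for 8 of 8 genes, against 33.6% of all genes, and lay on average 0.35 log2 units below the group mean of these genes. Its gap to the next array was small for IER5 (8.71 against 8.80) and similar to that between the other AP1510 arrays for IER2. AP1510 replicate 3 was the highest of the group for 6 of the 8 genes. SDs with AP1510 reached 0.57 for IER3, 0.51 for EGR3 and 0.43 for NR4A1, against 0.10, 0.14 and 0.09 in untreated cells. In the other groups the mean deviation of an array over the 8 genes ran from -0.11 to 0.07. What sets AP1510 replicate 1 apart was not tested.

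The rest of the early gene response was read from a list of 34 other immediate early genes, 33 of them measured. With TGF-alpha 21 fell, 1 rose and 11 did not pass, where 13.4% of all genes were called lower and 12.5% higher. The median log2 change was -0.61, against -1.39 for the 8 genes above and -0.01 for all genes. CCN2, a matricellular protein gene, fell 7.95-fold, FOSB, an AP-1 subunit gene, 7.70-fold, PLK2, a polo-like kinase gene, 5.82-fold and CCN1, a relative of CCN2, 5.64-fold. KLF4, a Krüppel-like factor gene, was the member that rose, by 1.46-fold (adjusted p = 0.002), and is named for that result.

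With heregulin 10 of the 33 fell and 3 rose, with a median of -0.23, where 5.06% of all genes were called lower and 3.45% higher. The number that fell ran from 9 to 14 with single arrays left out. HBEGF, an EGFR ligand gene, fell 2.53-fold, CCN2 2.48-fold, JUN 2.41-fold and CCN1 2.25-fold. The genes that rose were SGK1, a kinase gene, by 1.76-fold, FOSL2, an AP-1 subunit gene, by 1.59-fold and MYC by 1.26-fold (adjusted p = 0.02), each named for its result.

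With AP1510 10 fell and 0 rose by limma, or 21 and 1 at an unadjusted p under 0.05, with a median of -0.45. Among all genes, 0.7% were called lower and 0.771% higher at an adjusted p under 0.05. The 10 that fell included CCN1 by 2.01-fold, HBEGF by 1.84-fold, JUN by 1.71-fold and FOS by 1.69-fold. The number that fell with AP1510 was 3 without AP1510 replicate 1 or untreated replicate 2, 4 without untreated replicate 1 or 3 and 6 without TGF-alpha replicate 2. Its full range with single arrays left out was 3 to 15.

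The delayed genes of the same pathway, which encode ERK phosphatases, Sprouty and SPRED inhibitors and ETS factors, were mostly higher with TGF-alpha. Of 12 such genes, all measured, 9 rose and 3 fell, with a median log2 change of 0.77. The shares of all genes were 12.5% called higher and 13.4% called lower. ETV1 rose 8.64-fold, ETV5 6.57-fold and ETV4 3.72-fold, all ETS factor genes, and DUSP6, the ERK phosphatase gene, rose 4.54-fold (adjusted p = 1.4e-09). The 3 that fell were the phosphatase gene DUSP4 and the Sprouty genes SPRY1 and SPRY2, named here for that result. With heregulin 1 of the 12 rose, ERRFI1, a receptor inhibitor gene, by 1.76-fold, and 6 fell, among them PHLDA1 by 3.14-fold, DUSP4 by 2.56-fold and SPRED1 by 1.79-fold. With AP1510 0 of the 12 passed by limma, while 3 were lower at an unadjusted p under 0.05, and the median was -0.19. The shares of all genes called higher and lower were 3.45% and 5.06% with heregulin, and 0.771% and 0.7% with AP1510.

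**Figure D4:**
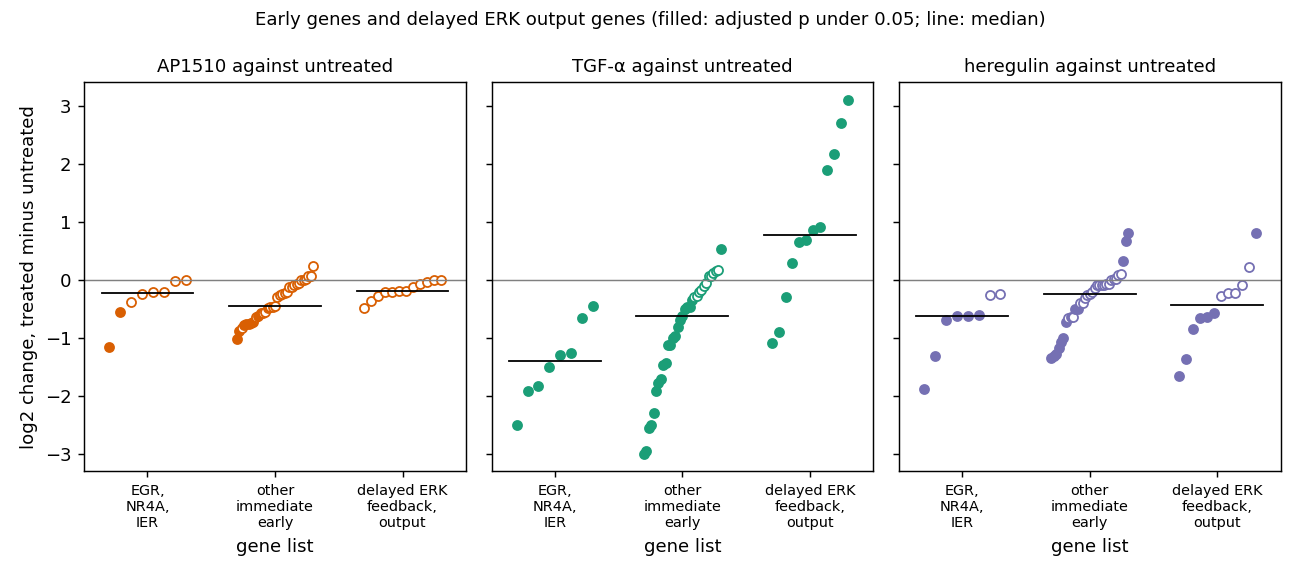
Log2 change in AP1510, TGF-alpha and heregulin cells against untreated cells (3 panels) for the 8 EGR, NR4A and IER genes, 33 other immediate early genes and 12 delayed ERK feedback and output genes. Points are genes, filled where the adjusted p was under 0.05, and lines are medians; with TGF-alpha the medians are -1.39, -0.61 and 0.77.

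Of 7 genes that work with the 3 families or are related to them, 1 rose and 1 fell with TGF-alpha, 1 rose with heregulin and 0 passed by limma with AP1510, also 0 at an unadjusted p under 0.05. Of all genes, 12.5% were called higher and 13.4% lower with TGF-alpha, and 3.45% higher with heregulin. NAB1 and NAB2, corepressors that bind EGR proteins, did not pass with any ligand. NAB2 changed by 0.07 with AP1510, -0.10 with TGF-alpha and -0.21 with heregulin (adjusted p = 0.86, 0.42 and 0.15). RXRA and RXRB encode partners with which NR4A1 and NR4A2 can dimerise. RXRA rose 1.22-fold with heregulin (adjusted p = 0.031) and RXRB fell 1.23-fold with TGF-alpha (adjusted p = 0.029), while RXRG did not pass with any ligand. IER5L, a relative of IER5, did not pass with any ligand. IER3IP1, named for an interaction with IER3, rose 1.20-fold with TGF-alpha (adjusted p = 0.045).

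Of 12 listed genes for SRF, CREB and factors that act with them or resemble them, 10 were measured. With TGF-alpha 2 rose and 3 fell. Whether each factor activates or represses early genes in these cells was not tested. Of all genes, 12.5% were called higher and 13.4% lower with TGF-alpha. CRTC3, a CREB coactivator gene, fell 1.41-fold (adjusted p = 0.00036), the ETS factor gene ELK3 rose 1.36-fold, MRTFB, an SRF coactivator gene, fell 1.30-fold and CRTC1 rose 1.29-fold. SRF itself fell 1.23-fold (adjusted p = 0.036) and is named for that result. With AP1510 and with heregulin 0 of the 10 passed by limma, or 0 and 2 at an unadjusted p under 0.05. Among 6 genes for proteins that bind AU-rich elements, which mark short-lived RNAs, 2 rose and 2 fell with TGF-alpha. ZFP36L1, which promotes decay of such RNAs, fell 2.50-fold and ZFP36, its relative, 1.76-fold, while KHSRP rose 1.40-fold and HNRNPD 1.23-fold. With AP1510 1 of the 6 fell, ZFP36 by 1.53-fold (adjusted p = 0.032), and with heregulin 1 fell, ZFP36L1 by 1.59-fold (adjusted p = 0.0029). The shares of all genes called lower were 0.7% with AP1510 and 5.06% with heregulin.

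Genes with the most similar pattern were found by the root-mean-square difference over the 12 arrays between log2 levels, each centred on its own mean. For EGR1 the nearest was ZFP36L1, at 0.06 log2 units, then DDR1, a collagen receptor kinase gene, at 0.08 and SLC37A1, a sugar phosphate transporter gene, at 0.11. For EGR3 they were HBEGF, PLAU, the urokinase gene, and CCN1, at 0.28 to 0.32. For IER2 the nearest was JUNB, an AP-1 subunit gene, at 0.08, then RHOV, a small GTPase gene, and PC, pyruvate carboxylase.

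NR4A1 and NR4A2 lay close to each other, at 0.14. TLR3, a receptor for double-stranded RNA, lay nearest to NR4A1 at 0.13 and was second to NR4A1 for NR4A2 at 0.15. The third places went to KCNK2, a potassium channel gene, for NR4A1 and to PRKAR2B, a regulatory subunit of the cAMP-dependent kinase, for NR4A2. For NR4A3 the nearest were DZANK1, FCHSD2 and CLSTN3, at 0.06 to 0.08.

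For IER3 they were SOX9, a transcription factor gene, DUSP4 and DEPTOR, an mTOR inhibitor gene, at 0.19 to 0.20. SOX9 shared the low level with both natural ligands, with means of 8.93 with AP1510, 7.92 with TGF-alpha, 7.76 with heregulin and 8.94 in untreated cells. For IER5 the nearest were EPS8L2, IQSEC1 and UNC119, at 0.09. Small differences are easier to reach for genes that move little, so these distances do not rank the 8 genes among themselves.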

How the data were processed

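Biotin-labelled total RNA from 12 cultures was read on Affymetrix arrays. The authors deposited log2 intensities made with RMA, per the submitters' processing notes. Its version is not given there. They were used as deposited. The precision is limited by the number of arrays.

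Of 33297 probe sets, 19460 named 1 gene, 1754 named several and 12083 named none in the annotation used. Only the first were used, with symbols updated through Entrez IDs to RefSeq names for 19429 of them. Where a gene had several, that with the highest mean was kept, giving 18417 genes. limma 3.58.1 in R 4.3.3 fitted 4 group means to all 12 arrays (8 residual degrees of freedom). The 6 contrasts were tested two-sided with Benjamini-Hochberg adjustment over all genes and a threshold of 0.05, and the procedure was tested on simulated data. Intervals are 95% intervals of the moderated fit.

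All 8 measured genes are named. Of each other list, up to 4 called genes per contrast are named by size of change, all partners may be named, and any further gene was chosen after its values were seen. For each gene the 3 most similar ones are named. The genes and lists were chosen with earlier results of these data known. Alternatives were renewed quantile normalization, array medians subtracted, dim genes left out, a trended robust prior, only the groups compared, array weights, the mean over probe sets, and each array left out.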

Additional observations from a re-analysis of the deposited data

How the results depend on the processing

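The 48 log2 changes (8 genes in 6 contrasts) were recomputed under 7 other settings and with each of the 12 arrays left out. No called change reversed. With 1 array left out, 17 of the recomputed changes no longer passed and 2 newly passed; under the other settings 2 no longer passed and 8 newly passed. The number of EGR, NR4A and IER genes that passed was 8 for TGF-alpha against untreated and against AP1510 with any array left out. It was 1 to 2 for AP1510 against untreated, 5 to 6 for heregulin against untreated and against TGF-alpha, and 7 to 8 in the F test. Leaving out dim genes removed NR4A3. For heregulin against AP1510 the number was 3, and 1 to 5 with 1 array left out. There it was 5 with array medians subtracted, dim genes left out or array weights, and 1 with only the arrays of the groups compared. That last setting has fewer samples and takes the spread from those arrays alone. The cause of these shifts was not tested. Over all genes, the number that passed for AP1510 against untreated was 271, and leaving out untreated replicate 1, 2 or 3 gave 117, 149 or 134, and leaving out AP1510 replicate 1 gave 95. For heregulin against untreated it was 1566, and 3000 with array weights and 1039 without untreated replicate 3. For heregulin against AP1510 it was 1331, and 2452 with array weights, 743 with only the groups compared, 818 without AP1510 replicate 2 and 859 without AP1510 replicate 3. Leaving out arrays for the lists of other early and delayed genes was chosen after seeing the data. No paired analysis was possible because the labels give no replicate number shared between groups.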
